A study of Mus musculus with 9 samples.

Results

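Blood group genes encode proteins of the red cell surface that carry inherited antigens, and 8 of them were followed in the yolk sac of mouse embryos that lack the ribonuclease inhibitor gene Rnh1. They were Rhd, Rhag, Icam4, Kel, Xk, Ermap, Gypc and Aqp1, chosen by name as members of the Rh complex, the Kell complex and further antigen carriers. Each was represented by 1 probe set that names it alone, and together they are 8 of the 19933 genes with such a probe set on the array. All 8 were brighter than the filter for dim genes on all 9 arrays and so were among the 13207 genes tested. Yolk sacs were taken at embryonic day 9.5 on a mixed SV 129/C57BL/6 background, without treatment, from wild-type (WT, Rnh1+/+), heterozygous (HET, Rnh1+/-) and knockout (KO, Rnh1-/-) embryos, with 3 arrays per genotype. Values are log2 signals from the authors' RMA processing, so a difference of 1 stands for a doubling of signal, and the number of arrays limits the precision. Which part of Rnh1 was deleted, whether a sample was 1 yolk sac or a pool, and whether replicates came from separate animals are not given in the sources. The p-values therefore measure only how far these samples spread. Xist or Eif2s3y differed widely between arrays of each genotype (values below), so those arrays were not all repeats of the same sample. How much of the spread lies between animals is not known.

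The yolk sac is the first site of blood formation, where large primitive red cells arise in blood islands and mature in the circulation. In red cells the Rh polypeptide and its glycosylated partner Rhag form a membrane complex that is tied, through band 3 and ankyrin, to the spectrin skeleton, and Rhag is thought to let ammonia and carbon dioxide pass. Kell is a zinc endopeptidase held by a disulfide bond to the Xk protein, and glycophorin C anchors the membrane to the skeleton at a separate junction. Genes of this kind are switched on as erythroblasts mature, under transcription factors that include Gata1 and Klf1.

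Rnh1 itself stood at 10.32 to 10.42 on the WT arrays, 9.75 to 9.77 on HET and 6.28 to 6.87 on KO, in the order of the labels. Erythroid tissue was present on every array: the mean of 3 embryonic globins lay between 13.01 and 13.23 and that of 10 erythroid regulators, among them Gata1, Klf1 and Tal1, between 9.17 and 9.67. Of 11 markers of adult maternal blood cells, 5 were measured (Car1, S100a8, S100a9, Ngp and Camp), and these were below the filter on all arrays. The other markers of that list were not measured. WT 2 and KO 1 stood apart from their groups at the same end of the second principal component (18.7% of variance). On KO 3 the summed trophoblast markers reached 11.94, against at most 10.27 on the WT and HET arrays and 9.81 at the low end of KO, with Tpbpa, Ctsq and Psg17 too dim to test. The decidua marker Prl8a2 ranged from 8.90 to 10.72 in WT, from 6.50 to 9.75 in HET and from 9.76 to 11.34 in KO, and the part of these markers in the results was not tested. The labels do not give sex. Xist, transcribed from the inactive X chromosome, was high on 2 of 3 WT arrays, 1 of 3 HET arrays and 3 of 3 KO arrays.

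Comparing KO with WT asks how the yolk sac differs when no working copy of Rnh1 is left. All 8 blood group genes had a lower mean in KO, and 5 of them fell at an adjusted p under 0.05: Rhd, Rhag, Kel, Xk and Aqp1 (limma, Benjamini-Hochberg adjusted over all 13207 genes). Among all genes tested 15.2% fell by this rule and 8.27% rose. The median difference of the 8 was -0.59 (log2), and the median of all genes was -0.00462. Rhd and Rhag differed most, at 41.8% and 41.4% of the WT signal, and Kel stood at 51.9%. Icam4 and Gypc differed least. In whole tissue, fewer red cells and less RNA per red cell cannot be told apart. The count of 5 was 1 without WT 1, where Rhd alone passed, 2 without WT 2, WT 3, KO 2 or KO 3, and 7 without KO 1. The share of all genes called in either direction was 23.5%. It was 12.7% without WT 1, 13.4% without WT 2 and 18.3% without WT 3.

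**Figure D1:**
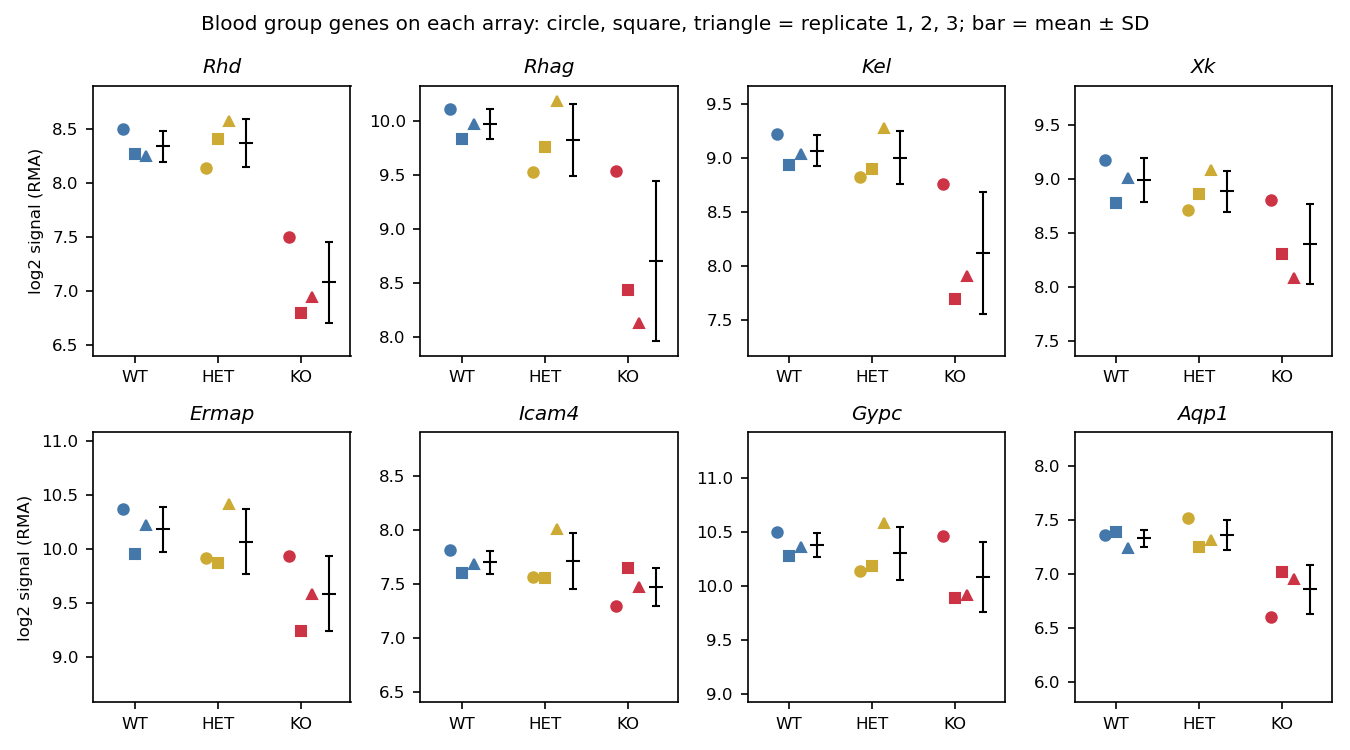
Log2 signal (y axis) of each gene on every array by genotype (x axis); symbols are replicates 1, 2 and 3, and bars give the mean ± SD of 3 arrays. The KO arrays of Rhd lie clear of all others, whereas for Rhag, Kel, Xk, Ermap and Gypc KO 1 lies close to or among the WT and HET arrays.

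In the Rh complex, Rhd encodes the Rh polypeptide, the antigen carrier. Arrays WT 1 to 3 read 8.50, 8.27 and 8.25, HET 1 to 3 read 8.14, 8.41 and 8.57, and KO 1 to 3 read 7.50, 6.80 and 6.95 (log2 signal, as for all levels given). Every KO array was below every WT and HET array, and KO 1 was the highest of the KO arrays. The difference from WT was -1.26 ± 0.18 (log2, SE, n = 3 per genotype, 95% interval -1.67 to -0.85, limma adjusted p = 0.00258), and it kept an adjusted p under 0.05 in all 21 other settings tried (8.77e-05 to 0.0144).

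Rhag encodes the Rh-associated glycoprotein, without which Rh polypeptides do not reach the surface. WT 1 to 3 read 10.11, 9.84 and 9.98, HET 1 to 3 read 9.53, 9.76 and 10.19, and KO 1 to 3 read 9.54, 8.44 and 8.14. KO 2 and KO 3 were far below the rest, but KO 1 was level with HET 1. The mean fell by 1.27 ± 0.32 (interval -1.99 to -0.55, limma adjusted p = 0.0209), the widest interval of the 8 genes. The call was lost without WT 1 (0.0693), WT 3 (0.0503), KO 2 (0.0703) or KO 3 (0.0577), with adjusted p from 0.000198 to 0.0703 over the settings.

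Icam4, an adhesion molecule that binds integrins and sits with the Rh proteins in the membrane, did not pass the test. WT 1 to 3 read 7.81, 7.60 and 7.68, HET 1 to 3 read 7.56, 7.55 and 8.005, and KO 1 to 3 read 7.29, 7.65 and 7.47. The KO arrays overlapped those of both other genotypes, and here KO 1 was the lowest KO array. The difference was -0.23 ± 0.14 (interval -0.53 to 0.08, limma adjusted p = 0.246), so a fall of the size seen for Rhd lies outside its interval.

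Whether both Rh genes shifted by the same amount was examined as the difference Rhd minus Rhag within each array, which removes any shift common to both. It was -2.04, -1.64 and -1.19 on the KO arrays, against -1.73 to -1.35 on the 6 others. KO arrays lay on both sides of the others and the mean differed by -0.08 (two-sided exact permutation p = 0.667, adjusted over 2 pairs 0.667, 84 splits). The KO values spread by 0.42 (SD), against 0.15 in the others, so a difference between the shifts of Rhd and Rhag was not detectable here, which does not show them equal.

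In the Kell complex, Kel encodes the endopeptidase, which can activate endothelin precursors. WT 1 to 3 read 9.22, 8.94 and 9.04, HET 1 to 3 read 8.83, 8.90 and 9.28, and KO 1 to 3 read 8.77, 7.70 and 7.91. All KO arrays were below all others, KO 1 only by a small margin. The mean fell by 0.95 ± 0.25 (interval -1.50 to -0.39, limma adjusted p = 0.0248). The call did not hold without WT 1 (0.0828), WT 2 (0.0528), WT 3 (0.0548), KO 2 (0.0764) or KO 3 (0.0747), nor with the HET arrays left out of the fit (0.0538), within a range of 0.000205 to 0.0828.

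Xk encodes a membrane-spanning partner of Kell that also binds the lipid transfer protein Vps13a. The gene lies on the X chromosome. For Xk, WT 1 to 3 read 9.18, 8.77 and 9.01, HET 1 to 3 read 8.71, 8.86 and 9.08, and KO 1 to 3 read 8.81, 8.31 and 8.09. KO 1 lay within the WT range, and KO 2 and KO 3 were below every other array. The mean fell by 0.59 ± 0.18 (interval -1.00 to -0.17), and the adjusted p of 0.0463 by limma was close to the threshold. Of the fits that lacked 1 array, that lacking KO 1 passed and the 8 others did not (0.0521 to 0.145), in an overall range of 0.000583 to 0.145. Further settings in which it did not pass were no filter (0.0643), quantile normalization (0.0576), cyclic loess (0.0604), the fit without HET arrays (0.0835) and the replicate block (0.0529).

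Because Xk is X-linked, transcripts that depend on sex are given beside it. Xist read 5.69, 10.65 and 10.995 on WT 1 to 3, 5.15, 10.56 and 5.76 on HET 1 to 3, and 11.05, 11.06 and 11.66 on KO 1 to 3. The Y-linked gene Eif2s3y read 8.81, 8.15 and 4.34 on WT 1 to 3, 8.68, 7.87 and 8.48 on HET 1 to 3, and 7.62, 7.27 and 4.41 on KO 1 to 3. Arrays WT 2, HET 2, KO 1 and KO 2 were high for both genes. On WT 3 and KO 3, where Xist was high and Eif2s3y at its lowest, Xk stood at 9.01 and 8.09. With Eif2s3y as a covariate in the fit the Xk difference was -0.55 (limma adjusted p = 0.0656).

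Kel minus Xk within each array was -0.04, -0.61 and -0.18 in KO and 0.03 to 0.20 on the 6 WT and HET arrays, without overlap. The shift of -0.38 gave a two-sided exact permutation p of 0.0119, the smallest that 84 splits allow, and 0.0238 adjusted over the 2 pairs. Kel was thus lower relative to Xk in KO, on probe sets that can differ in how strongly they respond. The shift was -0.21 without KO 2, and -0.50 without KO 1. With any KO array left out the adjusted p was 0.0714, as low as that design allows.

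**Figure D2:**
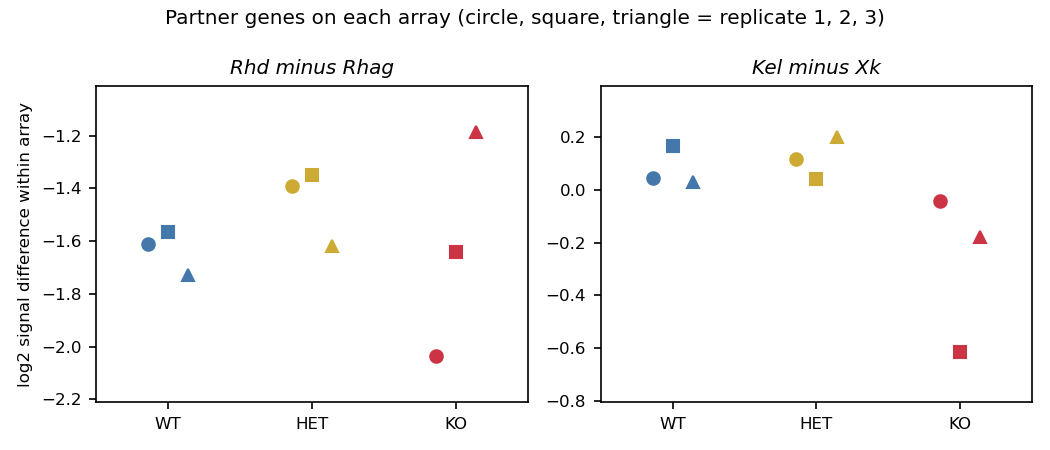
Difference in log2 signal (y axis) between partner genes within each array, by genotype (x axis); symbols are replicates 1, 2 and 3. For Kel minus Xk the 3 KO arrays lie at -0.04 or below and the 6 others at 0.03 or above, while for Rhd minus Rhag the KO arrays spread on both sides of the others.

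Ermap encodes an erythroblast membrane protein of the immunoglobulin superfamily that carries the Scianna antigens. WT 1 to 3 read 10.36, 9.95 and 10.22, HET 1 to 3 read 9.91, 9.87 and 10.41, and KO 1 to 3 read 9.93, 9.24 and 9.59. All KO arrays lay below all WT arrays, KO 1 narrowly, and KO 1 overlapped HET. Its difference from WT was -0.59 ± 0.20 (interval -1.04 to -0.14, limma adjusted p = 0.06), nearly that of Xk, and did not pass. It passed without KO 1 (-0.77, 0.0222), without HET 3 (0.0427), with arrays centred on their medians (0.035), with a trended and robust prior (0.043) and with the replicate block (0.0277), and also with array weights and without WT 2 and KO 1 together, out of a range of 0.000772 to 0.178.

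Gypc encodes glycophorin C, a sialic acid-rich protein that joins the membrane to the skeleton. WT 1 to 3 read 10.50, 10.28 and 10.36, HET 1 to 3 read 10.14, 10.19 and 10.58, and KO 1 to 3 read 10.46, 9.89 and 9.91. KO 1 lay inside the WT range, while KO 2 and KO 3 were below all 6 other arrays. The difference was -0.29 ± 0.17 (interval -0.67 to 0.09, limma adjusted p = 0.231). Without KO 1 it was -0.48 and passed (0.03), with the alternatives ranging from 0.0036 to 0.51.

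Aqp1 encodes a water channel of red cells that is also made by endothelium and other cells, and that carries the Colton antigens. WT 1 to 3 read 7.36, 7.39 and 7.25, HET 1 to 3 read 7.52, 7.25 and 7.32, and KO 1 to 3 read 6.60, 7.02 and 6.96. All KO arrays were below all others, and the lowest was KO 1, the array that stood nearest to WT for Rhd, Rhag, Kel, Xk, Ermap and Gypc. Aqp1 fell by 0.48 ± 0.12 (interval -0.74 to -0.21, limma adjusted p = 0.0187), to 71.9% of the WT signal. The call was lost without WT 1 (0.0641), without WT 2 (0.0636) and without WT 2 and KO 1 together (-0.32, 0.0602), within a range of 0.00422 to 0.0641. Endothelial genes gave no common direction on these arrays: of 10 tested, Egfl7 and Cldn5 rose, Tek fell and 7, Pecam1 and Kdr among them, did not pass, with summed levels of 13.07 to 13.14 (WT), 12.99 to 13.16 (HET) and 13.12 to 13.23 (KO). Their part in the Aqp1 result was not tested.

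Across the 8 genes, all KO arrays lay below all WT arrays in Rhd, Rhag, Kel, Ermap and Aqp1 (5 of 8), as in 24.7% of all genes tested. All KO arrays lay below all HET arrays in Rhd, Kel and Aqp1 (3 of 8, against 21.4% of all genes). The same 3 genes had all KO arrays below all 6 others (18.7% of all genes).

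KO against HET asks what the loss of the remaining copy adds. Here 4 of 8 fell by limma (13.6% of all genes fell): Rhd by 1.29 ± 0.18 (adjusted p = 0.00217), Rhag by 1.12 ± 0.32 (0.0351), Kel by 0.88 ± 0.25 (0.0337) and Aqp1 by 0.50 ± 0.12 (0.0157). Xk (-0.48, adjusted p = 0.0907), Ermap (-0.48, 0.12), Icam4 (-0.24, 0.248) and Gypc (-0.22, 0.41) did not pass. This comparison and KO against WT share the KO arrays, so they are not independent. Of 6 tested decidua genes, Prl8a2 was higher in KO than in HET by 2.69 ± 0.81 (limma adjusted p = 0.0431), with all KO arrays above all HET arrays, Igfbp1 was lower by the same test (-1.34 ± 0.20, 0.00285), and 4 did not pass. The summed level of the decidua list was 11.50 to 11.95 in HET and 11.73 to 12.36 in KO, and its part in the KO against HET results was not tested. The count was 1 without HET 1, 2 without WT 1, HET 2, HET 3, KO 2 or KO 3, and 6 without KO 1. The share of all genes called in either direction was 21.8%. It was 11.5% without HET 1, 11.9% to 18.1% where the count was 2, and 23.9% without KO 1. With Eif2s3y as a covariate Rhd alone passed (13.2% of all genes), and 2 genes passed without the WT arrays in the fit (14.8%). With WT and HET taken as 1 group of 6 arrays, 6 of 8 fell in KO (19.1% of all genes fell), Ermap by 0.54 ± 0.17 (limma adjusted p = 0.0342) and Xk by 0.54 ± 0.15 (0.024) in addition to those 4. The Ermap call there did not hold with quantile normalization (0.0512), cyclic loess (0.0505), Eif2s3y as a covariate (0.0668), or without WT 1 (0.0649), WT 3 (0.0607), HET 3 (0.0534), KO 2 (0.153) or KO 3 (0.0876). The Xk call there did not hold with that covariate (0.0641) or without KO 2 (0.0876) or KO 3 (0.108).

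HET against WT asks whether the loss of 1 copy is enough for a difference. None of the 8 genes passed by limma, nor did any of the 13207 genes (0%). Rnh1 itself did not pass (-0.62 ± 0.13, limma adjusted p = 0.939), although all HET arrays lay below all WT arrays for it. At an unadjusted p under 0.05 the numbers were 0 of 8 and 327 of all genes. The smallest unadjusted p of the 8 was 0.58. Differences ran from -0.15 ± 0.32 for Rhag to 0.03 ± 0.18 for Rhd, and WT and HET arrays overlapped in each gene. The 95% intervals reached from -0.38 to 0.44 for Rhd and from -0.87 to 0.57 for Rhag, and differences within these limits were not detectable with 3 arrays per genotype.

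**Figure D3:**
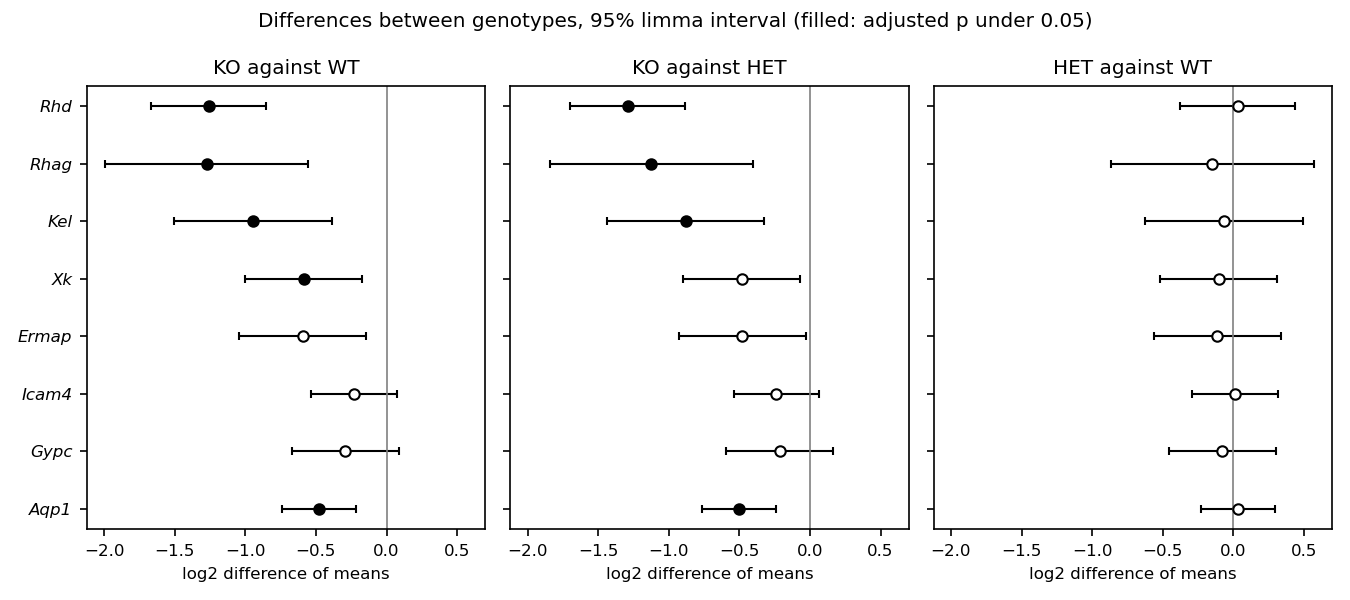
Log2 difference of genotype means (x axis) for each gene (y axis) in 3 comparisons, with 95% intervals from limma; filled points have an adjusted p under 0.05. Rhd, Rhag, Kel, Xk and Aqp1 are filled for KO against WT, the same without Xk for KO against HET, and none for HET against WT.

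Within a genotype the genes tended to be high or low on the same arrays. WT 1 held the highest WT value in 7 of 8 genes and HET 3 the highest HET value in 7 of 8, with Aqp1 the exception both times. WT 2 held the lowest WT value in 6 of 8. In KO the highest value was on KO 1 in 6 of 8 genes and on KO 2 for Icam4 and Aqp1. The mean of the 10 erythroid regulators was 9.56, 9.31 and 9.54 on WT 1 to 3, 9.17, 9.28 and 9.54 on HET 1 to 3, and 9.67, 9.23 and 9.28 on KO 1 to 3, so it was also high on WT 1, HET 3 and KO 1. The same mean for the 8 measured genes of the erythroid membrane skeleton list was highest at 9.31 on WT 1. Among the 6 WT and HET arrays it was lowest at 8.965 on HET 1. On KO 1 to 3 it read 8.83, 8.53 and 8.48, below all others. The list holds Tspo2, which was too dim to test.

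Of the 10 erythroid regulators 0 fell by limma against WT, Ldb1 rose (0.36 ± 0.08, adjusted p = 0.0112) and 9 did not pass, Gata1 (-0.19), Klf1 (-0.43) and Tal1 (-0.13) among them. At an unadjusted p under 0.05, 1 regulator (Klf1) was lower and 1 (Ldb1) higher. In KO against HET, Kit (0.86 ± 0.19, limma adjusted p = 0.0144) and Ldb1 (0.43 ± 0.08, 0.006) rose and 8 did not pass. Kit was also lower in HET than in WT, without passing (-0.68 ± 0.19, limma adjusted p = 0.939). Both are among the regulators whose mean is subtracted below, and their part in those values was not tested. Against WT, 5 of 7 tested skeleton genes fell (15.2% of all genes fell), and of 3 globins Hbb-y fell by 0.20 (adjusted p = 0.0481 by limma). The globins stood at percentile 99.2 or above on every array, where differences can be compressed, so a small difference there is not a measure of red cell content. To set the 8 genes against the regulators, the mean of those 10 genes was subtracted on each array, a step chosen after the values were seen. All 3 KO arrays then lay below all 6 others in 6 of 8 genes (Rhd, Rhag, Kel, Xk, Ermap and Gypc), as did 5.91% of all genes treated alike. Without the step it was 3 of 8 genes and 18.7% of all genes. The step thus lowered the share among all genes by itself, so 5.91% is not an independent background. Rhag minus the regulators was 0.36 to 0.65 in WT and HET and -0.13, -0.79 and -1.15 in KO, so that KO 1, level with HET 1 in its own signal, stood apart from the 6. For Xk the same values were -0.54 to -0.38 and -0.86, -0.92 and -1.20, and for Gypc 0.82 to 1.04 and 0.79, 0.66 and 0.63. Icam4 and Aqp1 overlapped after this step. Rhd (-1.18), Rhag (-1.19) and Kel (-0.87) passed limma on these values and the other 5 did not. Of all genes 1.83% fell on these values, against 15.2% without the step. In that fit limma gave each of the 8 genes the same standard error (0.209), so it holds no spread of its own for each of them.

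Set against the mean of the membrane skeleton genes in place of the regulators, Rhd was the gene in which KO stayed below all others (-1.73 to -1.33 against -0.93 to -0.57). Gypc was the reverse, with 1.63, 1.36 and 1.43 on KO 1 to 3, above the 1.17 to 1.30 of the 6 others. The means of Xk (-0.04), Ermap (-0.04) and Aqp1 (0.07) differed little between KO and WT relative to that mean. The differences were 0.26 for Gypc, 0.32 for Icam4, -0.72 for Rhag and -0.395 for Kel. The subtracted mean includes Tspo2, too dim to test and level between WT (5.68) and KO (5.69). It therefore fell less in KO than the tested skeleton genes did, and each difference here depends on that. These values are a description without a test.

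**Figure D4:**
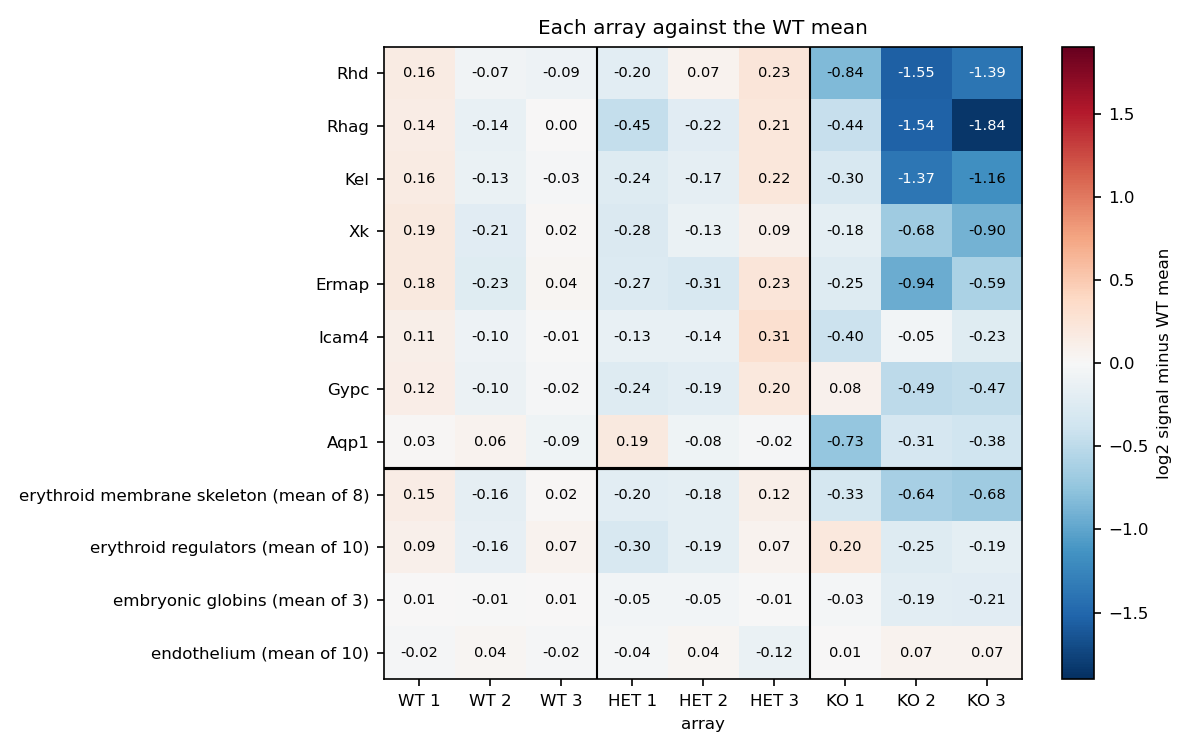
Log2 signal minus the mean of the 3 WT arrays, for the 8 genes (upper rows) and the means of 4 marker lists (lower rows) on each array (columns); red is above and blue below the WT mean. KO 2 and KO 3 are at -1.39 or below for Rhd and Rhag, the erythroid regulators vary between -0.30 and 0.20, and Aqp1 has its lowest value on KO 1.

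Genes with the most similar profile were found by the root mean square distance between log2 profiles over the 9 arrays, each centred on its own mean. For Rhd the nearest were Slc25a21, a mitochondrial carrier (0.10), Stab2, a scavenger receptor (0.19), and Pklr, the pyruvate kinase of liver and red cells (0.20), against a median of 0.65 over all genes. Slc25a21 was nearest to Rhag as well (0.18), and Kel ranked 2 of 13206 for Rhag (0.21). Nearest to Kel were Alas2, which starts heme synthesis in red cells (0.12), the skeleton protein gene Epb42 (0.145) and Tlcd4 (0.16). Nearest to Xk came Uros, an enzyme of heme synthesis (0.09), and the skeleton genes Ank1 (0.09) and Sptb (0.10). Ermap had Ank1 (0.09), Hemgn (0.09) and Trim10 (0.10) closest, and Gypc had Abcg4 (0.06), Slc25a37, the mitochondrial iron importer (0.07), and Tmem14c (0.07). The neighbours of Icam4 were Ncf4 (0.05), Snrnp25 (0.07) and Cfap57 (0.07). Aqp1 was nearest to Casp6 (0.05) and to the fatty acid oxidation genes Acadm (0.06) and Decr2 (0.07). The distances hold the genotype difference and the arrays' shared variation together, and those of genes with small changes are small for that reason too.

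Among the 8 genes themselves, Kel ranked 6 and Rhag 11 of 13206 in nearness to Rhd. Ermap ranked 33 and Gypc 36 for Xk, and Xk ranked 28 for Ermap. Icam4 ranked 2766 and Aqp1 1293 for Rhd. For Kel, Rhag ranked 14, Rhd 15, Ermap 20 and Xk 23, at distances of 0.207, 0.208, 0.226 and 0.234, so Kel lay about as near to Ermap and Xk as to the Rh genes. The nearest of the 8 to Icam4 was Aqp1 (rank 4541), and the nearest to Aqp1 was Icam4 (rank 2233).

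Promoter sequence was available for 7 of the 8 genes in the RefSeq table (build GRCm38.p6), and Gypc had none there. Because several of these genes had profiles close to those of erythroid genes, the 250 bases before the start site were searched on both strands for the GATA factor site in 4 forms. The first form was AGATAA. The second form was TGATAA. The third form was AGATAG. The last form was TGATAG. Rhd, Rhag, Kel, Ermap and Icam4 held at least 1 match and Kel held 2, while Xk and Aqp1 held none. Of all 32851 promoters of that length in the table, 26.5% held at least 1 match and 6.4% at least 2. Windows around the matches are shown 5′ to 3′ in the direction of the gene, with the matches in capitals (in Rhag, Ermap and Icam4 the match lies on the opposite strand).
Rhd (chr4:134864453-134864535, plus strand): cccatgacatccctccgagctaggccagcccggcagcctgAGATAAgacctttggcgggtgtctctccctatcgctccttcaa
Rhag (chr17:40811106-40811135, plus strand): agtcctctgctcTTATCAacactatacagc
Kel (chr6:41704335-41704421, minus strand): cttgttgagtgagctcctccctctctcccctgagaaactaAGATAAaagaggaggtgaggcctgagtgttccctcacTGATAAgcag
Ermap (chr4:119190014-119190102, minus strand): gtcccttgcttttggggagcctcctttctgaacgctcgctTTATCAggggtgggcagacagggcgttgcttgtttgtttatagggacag
Icam4 (chr9:21029349-21029431, plus strand): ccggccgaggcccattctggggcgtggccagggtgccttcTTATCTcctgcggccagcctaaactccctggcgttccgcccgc
The matches began 43 bases before the start site in Rhd, 31 in Rhag, 56 and 19 in Kel, 67 in Ermap and 43 in Icam4. The Rhag match lies inside the gene as annotated, which begins at 40811099, because its promoter entry places the start site downstream of that. A second motif, CNCNCCC for the CACCC box that Klf1 and related factors bind, was matched in 6 of the 7 promoters, all but Rhag, and in 63.9% of all promoters. Most of the 18 matches in Xk overlapped in a run of G. A match describes letters only and was not tested as a binding site.

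Genes whose products bind these proteins or anchor them were taken from a list of 10, of which 8 were tested. Of these 5 fell in KO against WT (15.2% of all genes tested fell), 0 rose and 3 did not pass, with a median of -0.565. At an unadjusted p under 0.05, 6 were lower and 0 higher. Ank1, Epb42, Mpp1 and Add2 also stand in the skeleton list. Add2, the beta subunit of adducin in the skeleton, fell by 1.02 ± 0.15 (limma adjusted p = 0.00285), and Epb42, which links the Rh complex and band 3 to ankyrin, by 1.01 ± 0.18 (0.00532). Ank1, the erythroid ankyrin, fell by 0.59 ± 0.18 (0.0439), and Slc4a1, the band 3 anion exchanger, by 0.62 ± 0.19 (0.0442). Vps13a, the lipid transfer protein that binds Xk, fell by 0.54 ± 0.14 (0.0258). Slc4a1 read 12.05, 11.79 and 12.01 on WT 1 to 3 and 11.80, 10.995 and 11.18 on KO 1 to 3, so KO 1 overlapped WT there too. The Rh-associated surface protein Cd47 (-0.15) and the endothelin gene Edn3 (0.19), whose precursor is a known substrate of Kell, did not pass. The count of 5 was 2 without WT 1, KO 2 or KO 3, and 3 without WT 2, HET 1 or HET 2. It was also 3 with no filter, with cyclic loess or with the Eif2s3y covariate, and 2 with the HET arrays left out of the fit.

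Other genes of blood group systems were taken from a list of 34, of which 30 were tested. Of these 11 fell, 0 rose and 19 did not pass (median -0.15), against 15.2% of all genes that fell. At an unadjusted p under 0.05, 12 were lower and 1 higher. Slc14a1, the urea transporter that carries the Kidd antigens, fell by 0.89 ± 0.16 (limma adjusted p = 0.00583), with 9.22, 8.81 and 9.57 on WT 1 to 3, 8.63, 8.63 and 8.64 on HET 1 to 3, and 8.3955, 8.18 and 8.37 on KO 1 to 3. The KO arrays were below all others, and the HET arrays were below all WT arrays, with a HET difference that did not pass (-0.57, limma adjusted p = 0.939). The transporters Abcg2 (-0.66 ± 0.11), Abcc4 (-0.55 ± 0.08) and Abcb6 (-0.33 ± 0.06) and the complement inhibitor Cd59a (-0.52 ± 0.10) fell too, with adjusted p from 0.00297 to 0.00655. Many genes of this list are also expressed outside red cells. The remaining calls were Cd59b, Aqp3, B3galnt1, Pigg, Cd55 and Slc4a1. The count was 6 without WT 1, 5 without WT 2 and 7 without KO 2 or KO 3. Of all genes 12.7% were called in either direction without WT 1 and 13.4% without WT 2, against 23.5% in the main fit.

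Relatives of the 8 genes by protein family formed a list of 26, of which 18 were tested and 8 were too dim. Of these 4 fell (22.2%, against 15.2% of all genes tested, a share near the background), 0 rose and 14 did not pass (median -0.05), and at an unadjusted p under 0.05, 6 were lower and 0 higher. All 4 were aquaporins: Aqp11 (-0.63 ± 0.09, limma adjusted p = 0.00293), Aqp8 (-0.65 ± 0.16, 0.0187), Aqp7 (-0.38 ± 0.07, 0.00797) and Aqp3 (-0.30 ± 0.07, 0.0156). They are water channels of which Aqp3 and Aqp7 also pass glycerol, and Aqp3 stands in the blood group list as well. The aquaporin gene Aqp5 (0.13, limma adjusted p = 0.436) did not pass, and Aqp4 and Aqp9 were too dim to test. The ammonia channel relative Rhbg (-0.06) and the Kell relatives Ece1 (0.10) and Ece2 (-0.20), the endothelin-converting enzymes, did not pass, nor did the Xk relatives Xkr8 (-0.17) and Xkr9 (-0.52, adjusted p = 0.0772) or the adhesion molecules Icam1 (-0.05) and Icam2 (0.04). The count was 2 without WT 1, where 12.7% of all genes were called in either direction, against 23.5% in the main fit. Genes of this paragraph other than the 4 aquaporins that fell and Xkr9 were named after their values were seen. Visceral endoderm markers, the list that stands for the main absorptive epithelium, had 3 of 10 lower (15.2% of all genes fell), 0 higher and 7 not past the test. Their summed level was 16.02 to 16.11 (WT), 15.99 to 16.12 (HET) and 15.71 to 15.86 (KO). The part of that change in the aquaporin values was not tested.

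**Figure D5:**
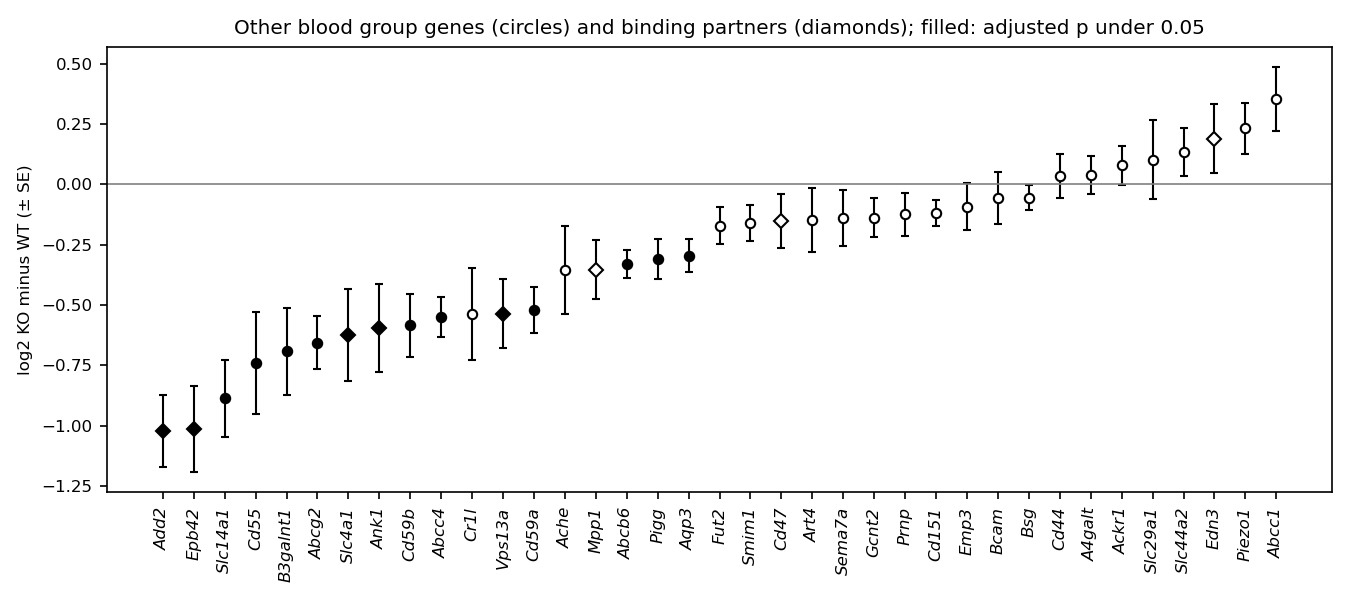
Log2 difference of KO minus WT (y axis, ± SE) for each tested gene (x axis) of the other blood group genes (circles) and the binding partners (diamonds, with Slc4a1, which is in both lists, drawn as one); filled points have an adjusted p under 0.05. All filled points lie below 0, with Add2 at -1.02 and Epb42 at -1.01 lowest.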

How the data were processed

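Whole-tissue RNA was hybridised to 9 arrays, 3 per genotype. Per the submitters' processing notes, the authors made the deposited log2 signals with RMA, using version 1.2.1.20 of Affymetrix Expression Console. No genome build for the array is named in the sources used. Of its 28350 probe sets, 21780 carry a single gene symbol in the platform annotation. The probe set with the highest mean was taken per gene. Genes above the 40th percentile of their array on at least 3 of 9 arrays were tested. Tests used lmFit and eBayes of limma 3.58.1 under R 4.3.3 (default settings, all 9 arrays, no covariate), adjusted by Benjamini-Hochberg over all genes tested. Within-array differences of 2 gene pairs were compared by exact permutation. The fit was tested on simulated data. Filters, scalings, weights, covariates, thresholds and single arrays left out were tried as alternatives. The genes named were the 8 members, up to 5 genes with the smallest p from each list of other genes, the 3 nearest genes by profile (predicted and unnamed loci left out) and marker lists; any further gene was named after its value was seen. Members, lists, tests and alternatives were chosen with earlier results of these data known.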

Additional observations from a re-analysis of the deposited data

How the results depend on the processing

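Each of the 8 genes kept its direction in KO against WT, KO against HET and KO against WT and HET under all 21 settings tried beside the main one, and with arrays centred on the regulators, a setting added after seeing the data. The count of genes called in KO against WT was 3 with the HET arrays left out of the fit, 3 with arrays centred on the erythroid regulators, and 1 to 7 with a single array left out. In KO against HET it was 2 with the WT arrays left out of the fit, 1 with Eif2s3y as a covariate and 1 to 6 with a single array left out. In KO against WT and HET it was 3 when a 1.5-fold change was also asked for, and 4 to 7 with a single array left out. It was 0 in HET against WT in every setting run. The share of all genes called moved with these settings too. In KO against WT it was 23.5%, and 16.3% with the HET arrays left out. In KO against HET it was 21.8%, and 14.8% without the WT arrays and 13.2% with the covariate. With a single array left out it was 11.5% to 23.9% there. In KO against WT and HET it was 31%, and 4.51% with the 1.5-fold demand and 24.4% to 32.5% with a single array left out. Binding partners numbered 3 with no filter, 3 with cyclic loess, 2 with the HET arrays left out of the fit, 3 with the Eif2s3y covariate, 2 when centred on the regulators and 2 to 6 with a single array left out. Other blood group genes numbered 18 with array weights (15 of them lower), where the weights did not fully converge and 43.6% of all genes passed. They numbered 5 with a 1.5-fold change asked for, 2 when centred on the regulators and 5 to 14 with a single array left out. Family relatives numbered 7, 2 and 0 under the same 3 settings and 2 to 6 with a single array left out. Kel minus Xk was -0.48 without WT 2 and KO 1 together (adjusted permutation p = 0.0952) and -0.36 against WT only (0.2). In both, the permutation p was the smallest that the design allows. With a single array left out Kel minus Xk was -0.50 to -0.21, and Rhd minus Rhag ran from -0.29 to 0.13. The cause of these shifts was not tested, other than that settings with fewer arrays hold less information. Same-numbered arrays did not all deviate together (r over 0.1 in 5 of 9 pairs, from -0.257 to 0.425), so the numbers were not taken as pairs. With the number as a replicate block, 5 genes were called in KO against WT (Ermap gained, Xk lost), 4 in KO against HET, 6 in KO against WT and HET and 0 in HET against WT, with 6 binding partners, 11 other blood group genes and 5 relatives. Array signals compress large changes, and 3 arrays per genotype limit what can be seen.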

Other observations

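Other cell types of the yolk sac were measured on the same arrays. Of all genes tested, 15.2% fell and 8.27% rose in KO against WT. Of 10 extraembryonic mesoderm genes 5 rose in KO against WT, among them the transcription factor genes Hand1 (0.75 ± 0.10, limma adjusted p = 0.00184) and Twist1 (0.59 ± 0.07, 0.00173), while Postn fell (-0.35 ± 0.08, 0.0152) and 4 did not pass. Of 5 tested macrophage genes 3 fell and 2 did not pass. Among the 3 were the mannose receptor gene Mrc1 (-1.295 ± 0.25, limma adjusted p = 0.00781) and the growth factor receptor gene Csf1r (-0.39 ± 0.09, 0.0152). Cd68 (-0.007) and Cx3cr1 (0.13) did not pass, and Aif1, Adgre1 and Ptprc were too dim to test. Of 6 megakaryocyte genes 1 fell (16.7%, near the share of all genes) and 5 did not pass. The gene that fell was Gp9, which encodes part of the platelet receptor for von Willebrand factor (-0.45 ± 0.09, limma adjusted p = 0.0104). Of 6 tested decidua genes 1 fell (16.7%, also near the share of all genes), Igfbp1 (-1.435 ± 0.20, limma adjusted p = 0.00235), and 5 did not pass.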
